A study of Mus musculus with 186 samples.

Results

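The genes described here are the 9 members of the CREB, CRTC and SIK families measured in the mouse brain, out of 28338 genes in the deposited table. They were taken by name: the transcription factors Creb1, Crem and Atf1, their coactivators Crtc1, Crtc2 and Crtc3, and the salt-inducible kinases Sik1, Sik2 and Sik3. RNA was sequenced in bulk from tissue dissected from frozen brains of Akap11 mutant mice, in striatum, thalamus, substantia nigra, hippocampus and 2 areas of cortex, prefrontal and somatosensory. Mice were 4 or 12 weeks old and were wild type (WT), heterozygous (Akap11 +/-, HET) or homozygous mutant (Akap11 -/-, KO), with no other allele or treatment in the labels. The sources used here do not give the strain, the sex, how the Akap11 allele was made, or whether libraries with the same number share an animal. The libraries, 96 at 4 weeks and 90 at 12 weeks, fall into 36 groups of region, age and genotype, 30 of 5 libraries and 6 of 6, so p-values measure the spread between libraries of a group.

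Akap11 encodes an anchoring protein that tethers protein kinase A (PKA), the kinase switched on by cAMP. PKA phosphorylates CREB1, CREM and ATF1 bound at cAMP response elements, and this recruits the coactivators CBP and p300. The SIK kinases phosphorylate the CRTC coactivators, which are then held in the cytoplasm by 14-3-3 proteins. PKA phosphorylates the SIKs and blocks this, so that CRTCs enter the nucleus and join CREB. Crem and Sik1 are themselves induced by cAMP in many cells, Crem through an internal promoter that makes the short repressor ICER, and both act as feedback on the pathway. In the striatum, dopamine acts on the pathway through D1 receptors, which raise cAMP, and D2 receptors, which lower it. RNA levels say nothing of the phosphorylation steps, and levels per gene do not separate ICER from the other Crem transcripts.

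The deposited counts per library summed to between 20.8 and 73.3 M (M, 1000000 counts), with a mean of 46.1 ± 9.60 M (SD). The lowest count in any library was 129 for Crem, 133 for Atf1 and 191 for Sik2, the 3 lowest of the members. Akap11 was lower in every KO library than in every WT library of the same region and age in 12 of 12 sets, at most 24.5 CPM (counts per 1000000 counts of the scaled library) in KO against at least 44.8 in WT. Some 4-week libraries stand apart by markers. In striatum, WT 92, KO 51, KO 161 and KO 163 carried RNA of cortical neuron markers. In thalamus, the thalamic markers summed to 2758 CPM in WT 913 and 3109 CPM in WT 914, against 4926 to 8663 CPM in the other libraries, and WT 23, at 5681 CPM, was set aside with them after an earlier account of these data. In substantia nigra, the dopamine neuron markers summed to 266 CPM in WT 42, 504 CPM in WT 92, 430 CPM in KO 44 and 437 CPM in KO 91, against 1358 to 6399 CPM in the others, and Akap11 in WT 92 was the lowest of any WT library. Calls in the regions and at the age of these libraries are given without them where that changes the call or moves the value by over 1.5 times.

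All 9 members passed the low-count filter in every comparison. Per kilobase of the longest coding transcript, and averaged over the 12 WT groups, Crtc1 at 35.8 and Sik3 at 33.6 CPM per kb stood far above the rest. Crtc2 followed at 9.07, Sik2 at 6.96, Creb1 at 5.10, Crtc3 at 3.73, Atf1 at 3.60, Sik1 at 3.59 and Crem at 3.13 CPM per kb. This order depends on the transcript length assigned to each gene, and Creb1 is divided by the longest transcript of the 9. Levels are CPM scaled over all libraries and compare a gene with itself.

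**Figure D1:**
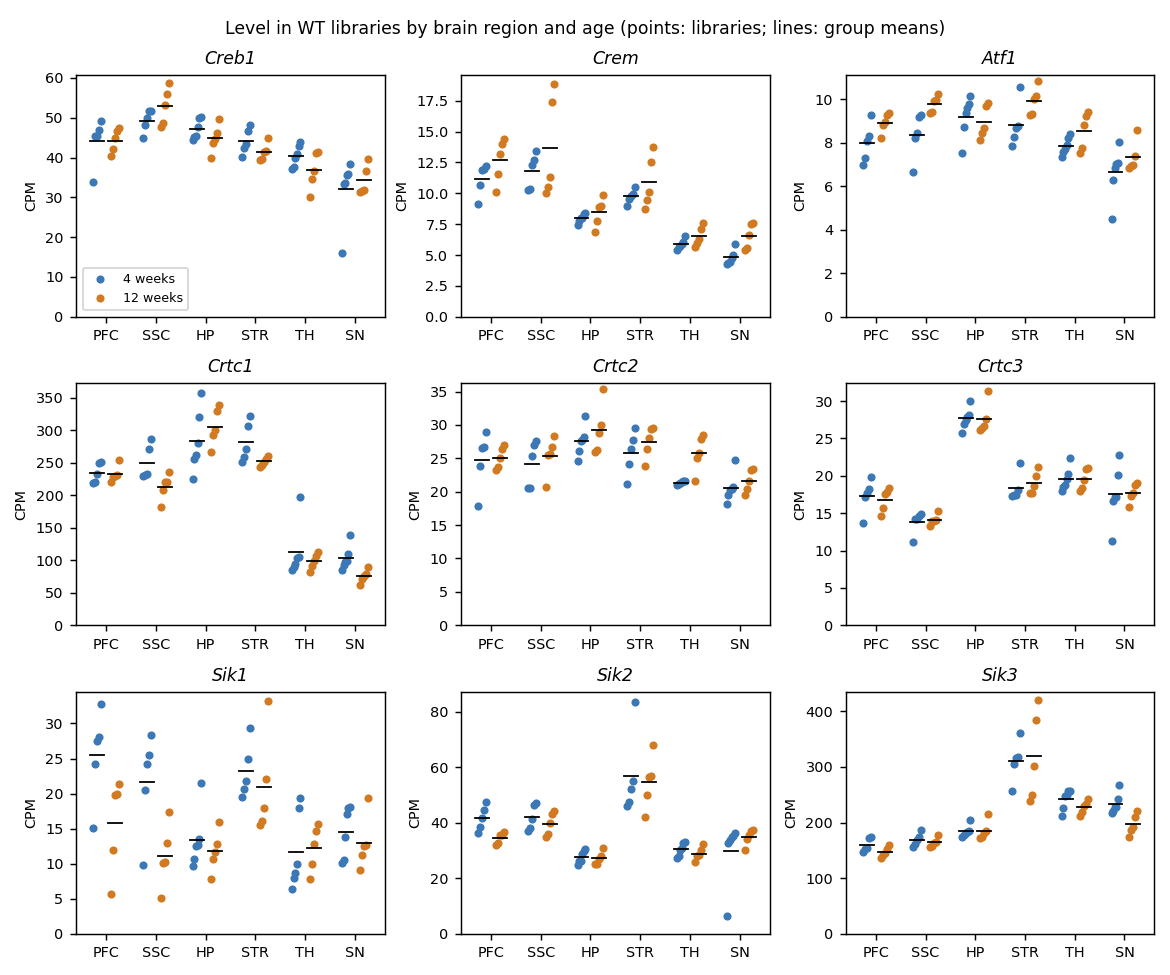
CPM of each member in every WT library by brain region (x axis), at 4 weeks (blue) and 12 weeks (orange), with group means as lines and each y axis starting at 0. Crtc1 is low in thalamus and substantia nigra, Crtc3 is high in hippocampus, and Sik2 and Sik3 are high in striatum.

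Regions were compared in WT mice with each region set against the mean of the other 5 over both ages. A large share of all genes differed in this comparison at an adjusted p under 0.05: 69.5% of the genes tested in substantia nigra, 68.7% in striatum, 66.6% in thalamus, 59.5% in prefrontal cortex, 57.6% in somatosensory cortex and 56.4% in hippocampus. Of 54 member tests 35 were called, a share near that of all genes, so a call by itself sets no member apart.

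Among the transcription factors, Crem (chr18:3266048-3337748, minus strand) was the one with the strongest regional pattern. It was higher in somatosensory cortex by 0.65 ± 0.069 (log2 difference ± SE, adjusted p = 4.64e-12), in prefrontal cortex by 0.53 ± 0.069 and in striatum by 0.29 ± 0.071 (adjusted p = 0.000322). It was lower in thalamus, at -0.59 ± 0.074, and in substantia nigra, at -0.77 ± 0.074. At 4 weeks the WT mean fell from 11.8 ± 1.43 CPM (SD, n = 5) in somatosensory cortex to 4.80 ± 0.619 CPM (n = 6) in substantia nigra, a ratio of 2.46. Somatosensory and prefrontal cortex overlapped, as did prefrontal cortex and striatum. All 5 striatal libraries lay above all 6 hippocampal ones, and all hippocampal ones above all 6 of thalamus.

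Creb1 (chr1:64532645-64604548, plus strand), the founding member of the family, was more even. It was higher in somatosensory cortex by 0.33 ± 0.060 and lower in substantia nigra, at -0.42 ± 0.061 (adjusted p = 2.65e-08), with smaller calls in hippocampus, 0.14, and thalamus, -0.16. The 4-week means ran from 49.3 ± 2.80 CPM in somatosensory cortex to 32.1 ± 8.06 CPM in substantia nigra, and each region overlapped the next in that order. The low end includes the substantia nigra library WT 92, at 16.1 CPM against 33.4 to 38.3 CPM in the other 5. Atf1 (chr15:100227819-100261244, plus strand), a close relative of Creb1 that can pair with it, varied least by region among these 3. It was called in 2 regions, higher in striatum by 0.17 ± 0.053 and lower in substantia nigra, at -0.33 ± 0.053, and every region overlapped its neighbour at both ages.

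Of the coactivators, Crtc1 (chr8:70382355-70439579, minus strand), the CRTC best known from neurons, differed in all 6 regions. It was higher in hippocampus by 0.81 ± 0.068, in striatum by 0.64 ± 0.071, in prefrontal cortex by 0.41 ± 0.072 and in somatosensory cortex by 0.39 ± 0.072. It was lower in thalamus, at -0.97 ± 0.077, and in substantia nigra, at -1.27 ± 0.079 (adjusted p = 4.97e-21). At 12 weeks the hippocampal mean of 306 ± 28.9 CPM was 4.07 times the mean of 75.2 ± 10.6 CPM in substantia nigra (n = 5 each). The 4 forebrain regions of cortex, hippocampus and striatum had no library below 182 CPM at 12 weeks, against a highest thalamic library of 112 CPM. At 4 weeks the thalamic library WT 913, one of those low in thalamic markers, was at 197 CPM and stood outside the other 5, which lay at 84.6 to 105 CPM.

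Crtc3 (chr7:80586627-80688877, minus strand) had its highest level in hippocampus, 0.68 ± 0.050 above the other regions (adjusted p = 1.82e-17), and its lowest in somatosensory cortex, at -0.50 ± 0.057. The hippocampal libraries, none below 25.7 CPM at 4 weeks or 26.1 CPM at 12 weeks, overlapped no other region's. Crtc3 overlaps an antisense gene and a further transcript in the annotation, so its counts are uncertain where the counting did not use the strand. Crtc2 (chr3:90254163-90264125, plus strand), best known from the liver, moved little: 0.24 ± 0.052 in hippocampus, 0.12 ± 0.054 in striatum and -0.28 ± 0.054 in substantia nigra.

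All 3 kinases were higher in striatum than the mean of the other 5 regions. The difference was 0.60 ± 0.16 for Sik1 (chr17:31844250-31855804, minus strand; adjusted p = 0.00065), 0.75 ± 0.096 for Sik2 (chr9:50892801-51009073, minus strand; adjusted p = 7.68e-10) and 0.74 ± 0.049 for Sik3 (chr9:46012820-46224194, plus strand; adjusted p = 5.51e-20). Outside striatum they diverged. Sik3 was also higher in thalamus, by 0.23, and lower in prefrontal cortex, at -0.51, somatosensory cortex, at -0.36, and hippocampus, at -0.19. Sik1 was higher in prefrontal cortex, by 0.44, and lower in thalamus, at -0.46, and hippocampus, at -0.37. Its 4-week WT mean was 25.5 ± 6.60 CPM in prefrontal cortex, above the 23.2 ± 3.94 CPM of striatum. At 12 weeks these means were 15.8 ± 6.74 and 20.9 ± 7.30 CPM. Its thalamic value ran from -0.76 to -0.42 over 15 alternative settings, including that without the libraries that stand apart, and was called in each. In 4-week WT thalamus Sik1 was at 17.9 CPM in WT 913 and 19.3 CPM in WT 914, against 6.35 to 9.91 CPM in the other WT libraries. Sik2 was lower in hippocampus, at -0.48, and in thalamus, at -0.35. In WT striatum Sik3 reached 311 ± 37.7 CPM at 4 weeks and 319 ± 81.2 CPM at 12 weeks, against 160 ± 12.2 and 147 ± 9.04 CPM in prefrontal cortex, its lowest region, with no overlap (n = 5 each). Sik2 had means of 56.9 ± 15.3 and 54.7 ± 9.63 CPM in striatum, where the libraries overlapped those of somatosensory cortex, the next region. Sik2 overlaps Ppp2r1b on the opposite strand.

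Some of the smaller regional calls were lost when libraries were left out. WT libraries were left out by number and age, all regions with that number together. The hippocampal call of Sik1 was lost without 4-week 23, 42, 92 or 913 or 12-week 2, 3, 4 or 5, at -0.40 to -0.32 (adjusted p of 0.0508 to 0.118). It was also lost with all libraries and no low-count filter, at -0.37 (adjusted p = 0.061). The striatal call of Crtc2 was lost without 4-week 92, 913 or 914 or 12-week 1, 2 or 5, at 0.10 to 0.13 (adjusted p of 0.0539 to 0.117), and without the libraries that stand apart, at 0.11 (adjusted p = 0.0774). The hippocampal call of Creb1 was lost without 12-week 1, 2, 3 or 5, at 0.13 to 0.15 (adjusted p of 0.0517 to 0.0833). In prefrontal cortex the call of Crtc3 was lost without 12-week 4 or 5, at -0.13 both times (adjusted p of 0.0622 and 0.0633), and that of Sik1 without 12-week 2, at 0.39 (adjusted p = 0.056).

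Between 4 and 12 weeks, 4 of 54 WT member tests were called. The share of all genes called was 24.7% in substantia nigra, 13.6% in thalamus, 8.71% in somatosensory cortex, 8.4% in striatum, 7.58% in prefrontal cortex and 6.94% in hippocampus. In substantia nigra Crem was higher at 12 weeks by 0.44 ± 0.13 (adjusted p = 0.00901), Crtc1 was lower, at -0.47 ± 0.13 (adjusted p = 0.00605), and so was Sik3, at -0.26 ± 0.092 (adjusted p = 0.0339). In somatosensory cortex Sik1 was lower at 12 weeks, at -0.96 ± 0.31 (adjusted p = 0.0367), 11.2 ± 4.52 CPM against 21.7 ± 7.22 CPM (n = 5 each). Its groups overlapped, from 5.07 to 17.4 CPM at 12 weeks and from 9.78 to 28.3 CPM at 4 weeks. WT libraries were again left out by number and age, in all regions together. The Sik1 call was lost without 4-week 23, 913 or 914 or 12-week 1, 2, 4 or 5, at -1.02 to -0.77 (adjusted p of 0.0509 to 0.107). The Sik3 call was lost without 4-week 23, 42 or 92 or 12-week 2, 3, 4 or 5, at -0.26 to -0.21 (adjusted p of 0.0527 to 0.121), and without the libraries that stand apart, which gave -0.20 (adjusted p = 0.186). Without those libraries Crem in substantia nigra was 0.42 (adjusted p = 0.0414) and Crtc1 -0.46 (adjusted p = 0.0032). The Crtc1 call was lost without the 4-week WT libraries numbered 23, at -0.35 (adjusted p = 0.0517). All 16 libraries in which few values are whole numbers are 4-week libraries, and their part in the age differences was not tested.

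The main comparison of the study sets KO against WT in each region and age. Of the 108 tests of a member in KO, 1 was called by edgeR, Crem in striatum at 4 weeks, and 13 had an unadjusted p under 0.05, or 12% against 8.73% of all genes tested. DESeq2 called 3, Crem in striatum at both ages and Sik1 in 4-week somatosensory cortex. Over all genes DESeq2 called 968 of 21807 in striatum at 4 weeks, 1033 of 21637 at 12 weeks, and 45 of 22301 in 4-week somatosensory cortex. The shares of all genes called by edgeR were 0.0125% in prefrontal cortex at 4 weeks and 0.0123% at 12, 0.0564% and 0.0252% in somatosensory cortex, 0.00609% and 0.00608% in hippocampus, 3.35% and 4.42% in striatum, 0.0128% and 0.0064% in thalamus, and 0.00617% and 0.0364% in substantia nigra. Outside striatum few genes of any kind were called by edgeR, while DESeq2 called 201 of 21818 in 4-week thalamus and 137 of 22405 in 4-week prefrontal cortex.

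**Figure D2:**
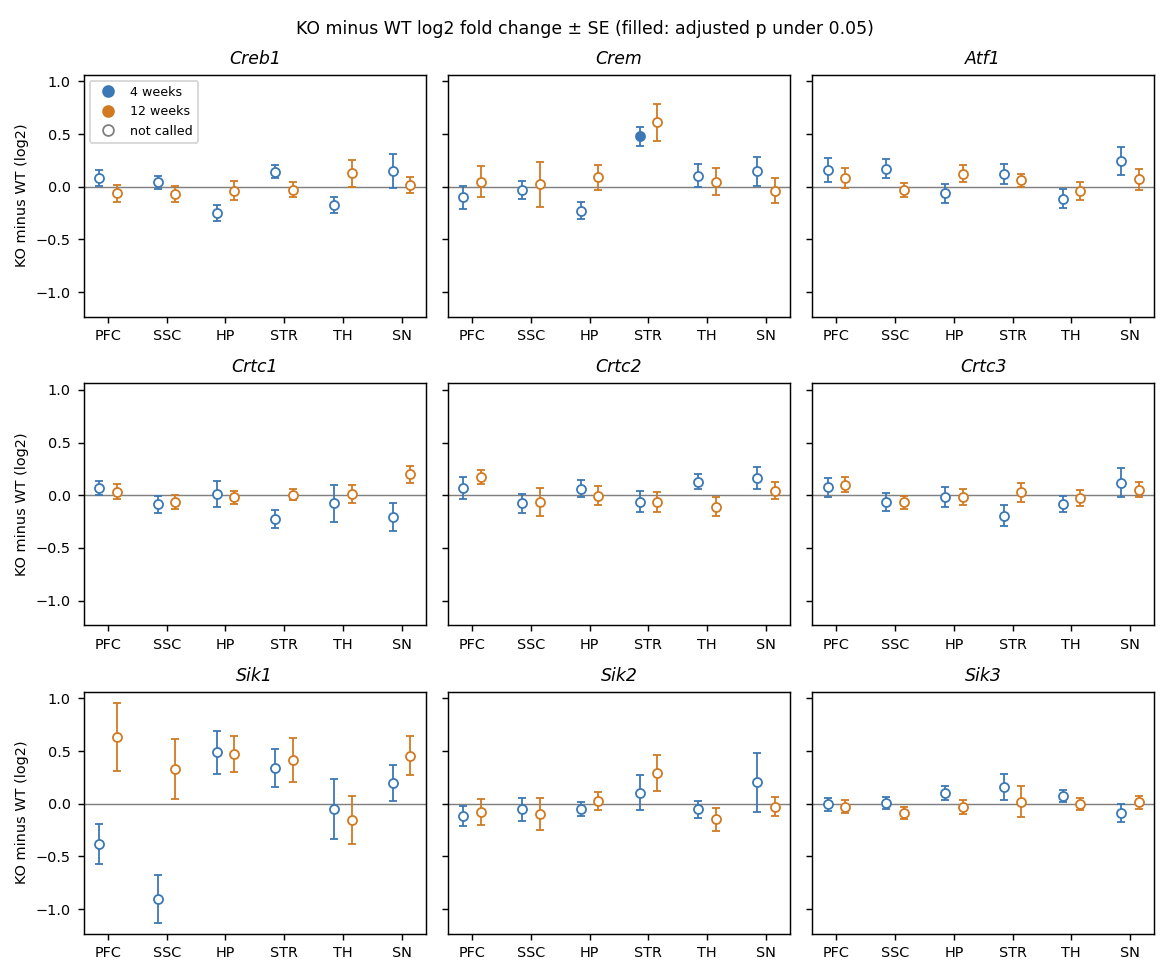
KO minus WT log2 fold change ± SE of each member (y axis) in 6 regions (x axis) at 4 weeks (blue) and 12 weeks (orange); filled points have an adjusted p under 0.05. Crem in 4-week striatum, at 0.48, is the filled point, and Sik1 has the widest error bars.

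Crem RNA was raised in the striatum of KO mice at 4 weeks. The KO libraries held 15.2 (KO 12), 11.6 (KO 51), 12.9 (KO 161), 13.1 (KO 163) and 15.1 CPM (KO 932). The WT libraries held 10.5 (WT 42), 9.81 (WT 92), 9.96 (WT 142), 9.58 (WT 913) and 8.94 CPM (WT 914). Every KO library was above every WT library. The HET libraries, at 12.1 (HET 11), 11.0 (HET 22), 10.2 (HET 93), 12.2 (HET 162) and 10.4 CPM (HET 931), lay between and overlapped both. Group means were 9.75 ± 0.558 in WT, 11.2 ± 0.966 in HET and 13.6 ± 1.53 CPM in KO (SD, n = 5 each). KO exceeded WT by 0.48 ± 0.087 on the log2 scale, a fold of 1.39 (edgeR quasi-likelihood test, adjusted p = 0.00637). HET exceeded WT by 0.20 ± 0.087, which was not called (adjusted p = 1), and KO exceeded HET by 0.28 ± 0.087 (adjusted p = 0.0858; 0.0374 with DESeq2). The counts behind these values were 284 to 658 per library, and Crem overlaps a further transcript on the opposite strand.

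**Figure D3:**
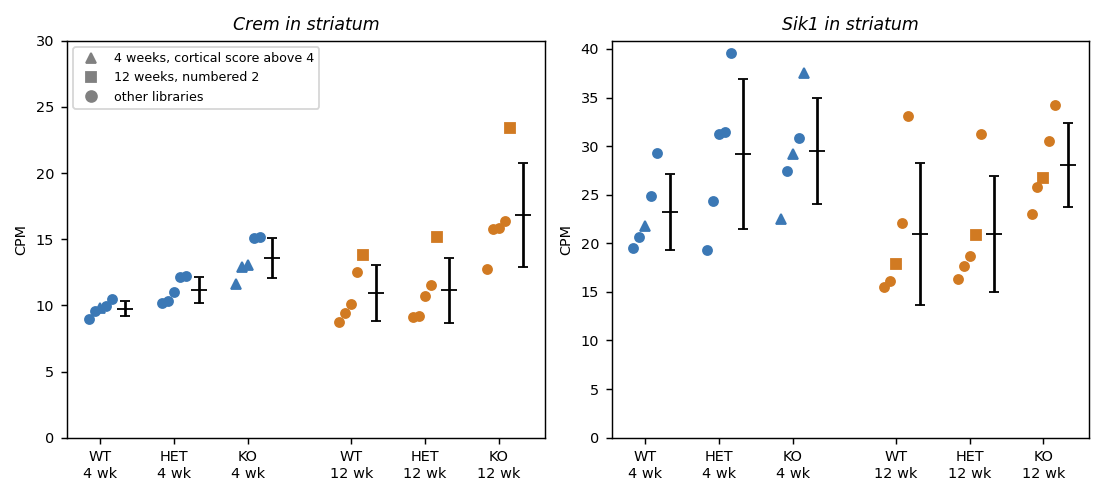
CPM of Crem (left) and Sik1 (right) in every striatal library by genotype and age, with mean ± SD beside each group; triangles mark 4-week libraries with a cortical marker score above 4 and squares the 12-week libraries numbered 2. At 4 weeks every KO library is above every WT library for Crem, and for Sik1 the genotypes overlap at both ages.

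The 4-week striatal libraries differ in cortical content, and this moves with Crem within KO. Summed levels of the 10 cortical and hippocampal excitatory markers were 958 to 3030 CPM in WT, 1280 to 1754 in HET and 1420 to 2599 in KO. Slc17a7, the vesicular glutamate transporter of cortical neurons, was picked for display after its values were seen. It was at 679 CPM in WT 92 and 564 to 1186 CPM in KO 51, KO 161 and KO 163, against 2.83 to 90.5 CPM in the other 11. Of the 10 markers, 1 in WT, 2 in HET and 3 in KO were at 0 in at least 1 library. The 10 striatal projection neuron markers summed to 6340 to 19856 CPM in KO and 10189 to 18707 CPM in WT. At 4 weeks 0 of them were called with all libraries. Without WT 92, KO 51, KO 161 and KO 163, 1 of the 10 was called higher, against 2.65% of all genes. The 3 KO libraries with cortical RNA were the 3 lowest of the KO group for Crem, and WT 92 was the median WT library. Without these 4 libraries the difference was 0.62 ± 0.10 (adjusted p = 0.00789), and with the marker score as a covariate it was 0.54 ± 0.085 (adjusted p = 0.00187). In bulk tissue, more cells expressing Crem and more Crem RNA per cell cannot be told apart.

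At 12 weeks the Crem difference in striatum was of similar size and did not pass the test. KO libraries held 12.7 (KO 1), 23.4 (KO 2), 15.8 (KO 3), 16.4 (KO 4) and 15.9 CPM (KO 5). WT libraries held 12.5 (WT 1), 13.8 (WT 2), 9.43 (WT 3), 10.1 (WT 4) and 8.76 CPM (WT 5), and HET libraries 9.13, 15.1, 11.5, 10.7 and 9.18 CPM in the same order. KO 1 lay within the WT range and the other 4 KO libraries above it. Means were 10.9 ± 2.14 in WT, 11.1 ± 2.46 in HET and 16.8 ± 3.93 CPM in KO (n = 5 each). KO minus WT was 0.61 ± 0.17, a fold of 1.53 (adjusted p = 0.0552), and KO minus HET was 0.59 ± 0.17 (adjusted p = 0.0606), while HET minus WT was 0.02 ± 0.17 (adjusted p = 1). In each genotype the library numbered 2 was the highest for Crem. With the replicate number as a block KO minus WT was 0.60 (adjusted p = 0.0053) and KO minus HET was 0.59 (adjusted p = 0.00517). The block raised calls over all 15622 genes as well, from 691 to 992 for KO minus WT and from 749 to 1291 for KO minus HET. Without the 3 libraries numbered 2, a choice made after seeing the data, KO minus WT was 0.55 ± 0.12 (adjusted p = 0.0237). Without KO 2 alone it was 0.46 (adjusted p = 0.135), without KO 1 0.69 (adjusted p = 0.0367) and without WT 2 0.70 (adjusted p = 0.0443). DESeq2 gave 0.61 (adjusted p = 0.0117). Cortical markers summed to 751 to 1178 CPM in KO and 976 to 1859 CPM in WT at this age.

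**Figure D4:**
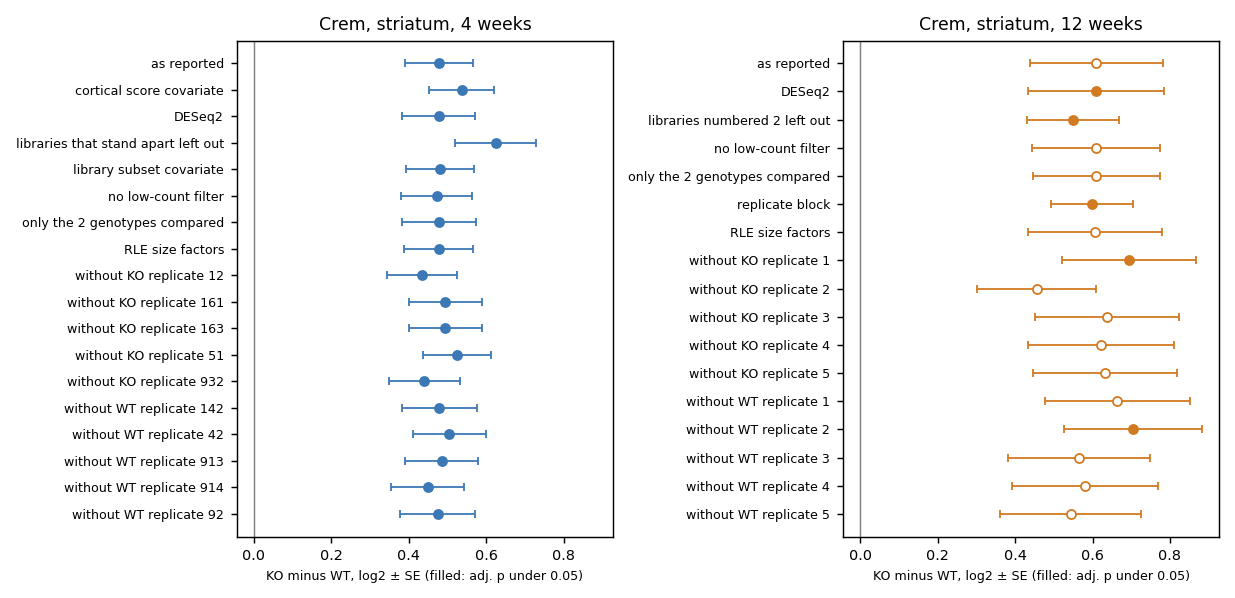
Crem KO minus WT log2 fold change ± SE in striatum (x axis) as reported and under each alternative setting (y axis), at 4 weeks (left) and 12 weeks (right); filled points have an adjusted p under 0.05. At 4 weeks all 17 alternatives are filled, between 0.44 and 0.62, and at 12 weeks all 16 lie between 0.46 and 0.70 and 5 are filled.

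The KO effect on Crem differed between striatum and the other regions at 4 weeks. The striatal effect exceeded the mean of the other 5 by 0.51 ± 0.11 (adjusted p = 0.00197), in a test that called 3.52% of all genes. At 12 weeks, where 3.11% of genes were called, the difference was 0.57 ± 0.18 (adjusted p = 0.0625), and 0.54 with a block (limma-voom, adjusted p = 0.0225). The latter setting called 699 of 17860 genes, against 555 with edgeR. Outside striatum, Crem in KO minus WT ran from -0.23 to 0.15 over 10 comparisons, 6 of them above 0. The lowest was in 4-week hippocampus, at -0.23 ± 0.079 (adjusted p = 0.725). In the test of whether the KO effect differs between ages, 0 of 54 member tests were called by edgeR and 0 by DESeq2. An unadjusted p under 0.05 was reached in 5 of them, or 9.26% against 5.21% of all genes. With edgeR 0% of all genes were called in each region, and DESeq2 called most in substantia nigra, 16 of 23544. For Crem in striatum the difference of 12 from 4 weeks was 0.13 ± 0.20.

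The other transcription factors did not pass in KO. In striatum Creb1 was at 44.1 ± 3.32 CPM in WT and 48.7 ± 1.72 CPM in KO at 4 weeks, a difference of 0.14 ± 0.061 (adjusted p = 0.23), and -0.03 ± 0.072 at 12 weeks. Over all 12 comparisons Creb1 ran from -0.25, in 4-week hippocampus (± 0.078, adjusted p = 0.725), to 0.15, and Atf1 from -0.11 to 0.24. Atf1 in striatum was 0.12 ± 0.095 at 4 weeks and 0.06 ± 0.062 at 12 weeks.

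The coactivators did not pass in KO either. Crtc1 in 4-week striatum was 282 ± 31.0 CPM in WT and 241 ± 24.1 CPM in KO, a difference of -0.23 ± 0.085 (adjusted p = 0.16). At 12 weeks the Crtc1 difference was 0.01 ± 0.052, with the smallest SE of the 108 tests. Crtc3 in striatum was -0.20 ± 0.099 at 4 weeks and 0.03 ± 0.090 at 12 weeks, and Crtc2 was -0.06 ± 0.097 and -0.06 ± 0.096. Over the 12 comparisons the 3 coactivators stayed between -0.23 and 0.20.

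Sik2 and Sik3 did not pass in KO. In striatum Sik2 was 0.11 ± 0.16 at 4 weeks and 0.29 ± 0.17 at 12 weeks (adjusted p = 0.46), when KO libraries held 55.2 to 82.9 CPM and WT libraries 42.1 to 68.2 CPM. Sik3 was 0.16 ± 0.13 and 0.02 ± 0.15. The 4-week values were refitted in 17 alternative settings, including that without the libraries that stand apart. Sik3 ran from 0.04 to 0.44 (adjusted p of 0.0913 to 0.87) and Sik2 from 0.04 to 0.28 (adjusted p of 0.358 to 0.937). At 4 weeks the KO libraries for Sik3 were 458 (KO 12) and 395 CPM (KO 932) against 278 to 309 CPM in the 3 with cortical RNA, and 256 to 362 CPM in WT. Without the libraries that stand apart at that age, the striatal effect on Sik3 exceeded that of the other regions by 0.45 (adjusted p = 0.00344), against 0.15 ± 0.087 with them (adjusted p = 0.473).

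Sik1 had the largest KO differences outside striatum and the largest errors. Over the 12 comparisons it ran from -0.90 to 0.63 with SEs of 0.17 to 0.33, and 8 of 12 were above 0. In 4-week somatosensory cortex the WT libraries held 24.2 (WT 23), 20.5 (WT 92), 9.78 (WT 142), 25.5 (WT 913) and 28.3 CPM (WT 914). The KO libraries held 8.68 (KO 12), 15.4 (KO 51), 11.0 (KO 161), 14.7 (KO 163) and 8.47 CPM (KO 932), and 6 HET libraries ran from 12.8 to 20.2 CPM with a median of 17.3. WT 142 was as low as KO, and the other 4 WT libraries were above every KO library. KO minus WT was -0.90 ± 0.23 (adjusted p = 0.325). The adjusted p was 0.0378 with DESeq2, and without WT 142 the difference was -1.08 (adjusted p = 0.0133). In prefrontal cortex of the same age it was -0.38. The sign was opposite at 12 weeks, 0.33 in somatosensory and 0.63 in prefrontal cortex. In hippocampus Sik1 was 0.49 and 0.47 at the 2 ages, in striatum 0.34 ± 0.18 and 0.41 ± 0.21, and in substantia nigra 0.20 and 0.45, none of them called. In thalamus it was -0.05 at 4 weeks and 0.50 without WT 23, WT 913 and WT 914, and -0.15 at 12 weeks.

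In HET mice 0 of 108 member tests were called by edgeR and 0 by DESeq2, and 6 had an unadjusted p under 0.05, or 5.56% against 5.39% of all genes. The share of all genes called by edgeR was 0.00626% in prefrontal cortex at 4 weeks and 0.00613% at 12, 0.00627% and 0.00629% in somatosensory cortex, 0% and 0.00608% in hippocampus, 0.00648% and 0.0064% in striatum, 0.00639% and 0.0064% in thalamus, and 0% and 0.00606% in substantia nigra. DESeq2 called most in 4-week thalamus, 288 of 21818 genes. Member differences in HET ran from -0.40, for Crtc1 in 4-week substantia nigra (-0.38 without the libraries that stand apart), to 0.35, for Sik1 in 12-week somatosensory cortex. Between KO and HET in striatum, edgeR called 3.88% of all genes at 4 weeks and 4.79% at 12 weeks, and 0 of 9 members at either age. An unadjusted p under 0.05 was reached in 4 of 18 member tests, or 22.2%, near the 18.9% of all genes. DESeq2 gave 2 member calls, both Crem, and called 1306 of 21807 genes at 4 weeks and 1149 of 21637 at 12 weeks. With the replicate block Crtc2 at 12 weeks was also called, at -0.17 (adjusted p = 0.0269), in a setting that called 1291 of 15622 genes against 749 without the block.

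Libraries of the same group varied far more for Sik1 than for the other members. Its median coefficient of variation over the 36 groups was 26.1%, above that of 97.5% of 11621 genes with at least 5 CPM on average, for which the median was 8.81%. Sik2 followed at 12.1% and Crem at 12.0%, and Sik3 was the steadiest at 6.85%. After each group mean was taken out, the genes whose deviations over all libraries were most like those of Sik1 were Fos (Pearson r = 0.695), Nr4a1 (0.672) and Egr2 (0.650), all induced within minutes by neuronal activity. For Crem they were Homer1 (0.656), a synaptic scaffold gene with an activity-induced short form, Etv5 (0.606) and Enox1 (0.595). Among early genes, Crem was at 0.250 with Egr1, 0.183 with Nr4a1, 0.157 with Arc and 0.039 with Fos. It was at -0.036 with Junb, -0.085 with Dusp1, -0.187 with Per1 and -0.234 with Btg2. The genes most like Creb1 were Zbtb33 (0.828), Fam126b (0.828) and Ube3a (0.816). For Crtc1 they were Iqsec2 (0.833), Jph4 (0.804) and Fbxo41 (0.782). For Crtc2 they were Rrnad1 (0.828), Fbxl12 (0.826) and Hps1 (0.826), and for Crtc3 Gltscr1 (0.587), Dchs1 (0.570) and Phf2 (0.569). For Sik2 they were Rab3gap2 (0.786), Ranbp2 (0.783) and Kdm5c (0.778), for Sik3 Srpr (0.71), Zdhhc14 (0.692) and Tpm1 (0.688), and for Atf1 Pkd2 (0.562), Mier1 (0.538) and Naf1 (0.527). These values are descriptions, since genes of a library share its depth, its dissection and its RNA quality.

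Across the 36 group means, where region dominates, Crtc1 was closely matched by Ddn (0.990) and Wasf1 (0.984), and Sik3 most like Shb (0.971), Tdrd7 (0.960) and Nfs1 (0.954). Crem was most like Tsnax (0.957), Glt1d1 (0.946) and Cdkn2aip (0.940), and Sik2 most like Tarsl2 (0.934), Slc9a5 (0.926) and Galnt13 (0.913). Crtc3 had Sec24d (0.934), Cntnap5c (0.909) and Tmem28 (0.905), with lower Spearman rank correlations of 0.582, 0.658 and 0.723. Creb1 had Nr2c2 (0.931), Lrrc4 (0.927) and Naa25 (0.927), and Atf1 had Tbp (0.922), Zfp763 (0.904) and Ctcf (0.897). Crtc2 had Nxf1 (0.903), Ccdc130 (0.888) and Top3b (0.887), and Sik1, the least closely matched, had Adcy3 (0.848), Gnb4 (0.846) and Ehbp1l1 (0.835). Among the members themselves, Creb1 and Crem were at 0.779 over group means and Sik1 and Sik2 at 0.721. Within groups, Creb1 and Sik2 were at 0.582, Crem and Sik3 at 0.396, and Crem and Sik1 at 0.070.

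Genes around the members were followed in striatum through lists of the pathway. Of 31 genes listed as CREB targets, 2 were higher and 3 lower in KO at 4 weeks, with a median of 0.06, and 3 were higher and 2 lower at 12 weeks, with a median of 0.30, against a median near 0 over all genes (-0.002 and 0.005). The share called was 16.1% of the list at each age, against 3.35% of all genes at 4 weeks and 4.42% at 12 weeks, and nothing particular to the list is read from it, since the list was chosen with earlier results known. Both directions were thus present at each age. Pdyn, which encodes the opioid precursor prodynorphin of D1-receptor neurons, rose from 84.6 ± 16.7 to 141 ± 23.7 CPM at 4 weeks (0.73 ± 0.16, adjusted p = 0.0177) and from 86.4 ± 25.7 to 179 ± 32.4 CPM at 12 weeks (1.03 ± 0.23, adjusted p = 0.0157). The zinc finger early gene Egr2 fell from 43.3 ± 19.3 to 3.72 ± 1.68 CPM (-3.53 ± 0.39, adjusted p = 8.54e-05) and from 23.9 ± 9.78 to 3.02 ± 2.10 CPM (-2.99 ± 0.45, adjusted p = 0.000975). Inhba, which encodes the activin A subunit, fell by 1.34 ± 0.18 and by 1.44 ± 0.20 on the log2 scale. Egr2, Inhba and Pdyn were also called at 4 weeks without the 4 striatal libraries with cortical RNA, at -4.33, -1.16 and 0.87, in a check added after seeing the data. In that setting 2 of the 31 genes were higher and 3 lower, or 16.1% against 2.65% of all genes. These include genes not called with all libraries and not named here. With the cortical score as a covariate 1 was higher and 3 lower, or 12.9% against 3.36% of all genes. The neuropeptide gene Cartpt was called higher at 4 weeks, 0.302 ± 0.126 CPM in WT and 1.94 ± 1.64 CPM in KO (2.65 ± 0.58, adjusted p = 0.0189). Its highest KO libraries, KO 51 at 4.55 and KO 161 at 2.51 CPM, are among those with cortical RNA, and Cartpt in WT somatosensory cortex of that age was at 9.07 ± 1.76 CPM. Without the 4 libraries the Cartpt difference was 1.64 (adjusted p = 0.171), and with the cortical score as a covariate 1.99 (adjusted p = 0.0556). Egr1, another early gene, was called lower, at -0.89 ± 0.23 (adjusted p = 0.0463), and was -0.62 without the 4 libraries (adjusted p = 0.347) and -0.87 with the covariate (adjusted p = 0.0605). At 12 weeks Sst, which encodes somatostatin, rose by 0.30 ± 0.062 (adjusted p = 0.00884) and Rgs2, a regulator of G protein signalling, by 0.69 ± 0.15 (adjusted p = 0.0121). Egr1 at 4 weeks and Pdyn at 12 weeks were each the fifth call of their set and are named to complete the count.

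**Figure D5:**
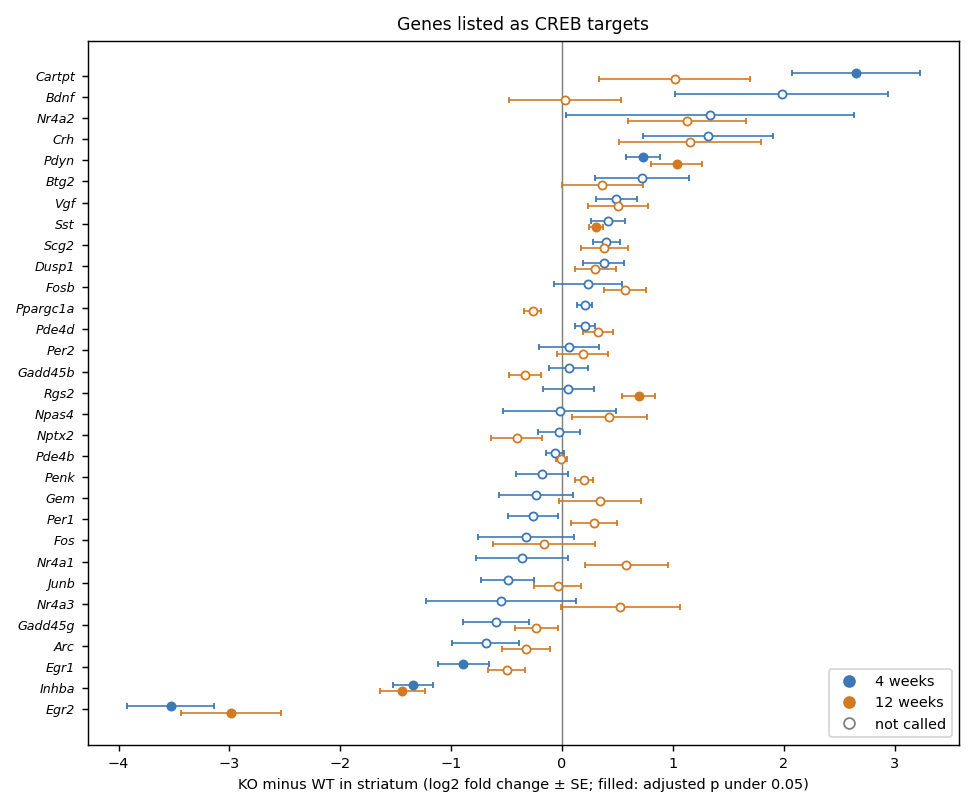
KO minus WT log2 fold change ± SE in striatum (x axis) of the 31 genes listed as CREB targets (y axis), at 4 weeks (blue) and 12 weeks (orange); filled points have an adjusted p under 0.05. Pdyn lies to the right and Egr2 and Inhba to the left at both ages, and most of the other genes are open points.

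Lists of the enzymes and partners of the members had 0 to 2 calls each. Of 19 CREB kinases, phosphatases and coactivators, 0 were higher and 2 lower at each age, or 10.5% against 3.35% and 4.42% of all genes, with medians of -0.09 and 0.01. At 4 weeks Crebbp, which encodes the coactivator CBP, fell from 115 ± 4.94 to 91.9 ± 2.75 CPM (-0.32 ± 0.052, adjusted p = 0.00335), with KO at 88.4 to 95.4 and WT at 107 to 120 CPM, and the CREB kinase gene Rps6ka3 was called lower, at -0.36 ± 0.090 (adjusted p = 0.0371). Without the 4 libraries with cortical RNA, Crebbp was -0.35 (adjusted p = 0.0296) and Rps6ka3 -0.20 (adjusted p = 0.253), and with the covariate Rps6ka3 was -0.25 (adjusted p = 0.0227). Crebbp at 12 weeks was at 68.3 ± 5.91 CPM in WT and 69.3 ± 4.97 CPM in KO. At 12 weeks it was the calcineurin subunits that fell, Ppp3ca by 0.34 ± 0.073 (adjusted p = 0.0123) and Ppp3r1 by 0.27 ± 0.073 (adjusted p = 0.0434). Calcineurin is a phosphatase known to dephosphorylate CRTC1. Of 15 LKB1 complex, 14-3-3 and class IIa HDAC genes, 0 were called at 4 weeks and 1 was higher at 12 weeks, Ywhaq, a 14-3-3 gene, by 0.25 ± 0.049 (adjusted p = 0.00734). Their medians were 0.03 and -0.05. Of 12 AMPK-related kinases, 0 were called at 4 weeks and Melk was lower at 12 weeks, at -0.69 ± 0.16, with medians of 0.02 and -0.05. Without those 4 libraries 1 of the 12 was called lower at 4 weeks, or 8.33% against 2.65% of all genes. Of the other CREB and ATF family genes, 0 of 14 tested at 4 weeks and 1 of 15 at 12 weeks were called, Atf6, a stress sensor of the endoplasmic reticulum, at -0.28 ± 0.075, with medians of 0.08 and 0.05. Of 9 PKA subunits and inhibitors, the inhibitor Pkig was lower at 4 weeks, at -0.29 ± 0.074 (adjusted p = 0.0465, and 0.201 without those 4 libraries), and 0 were called at 12 weeks, with medians of 0.06 and -0.01.

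Marker lists were called in part in striatum, where 3.35% of all genes were called at 4 weeks and 4.42% at 12 weeks. At 4 weeks 1 of 10 astrocyte markers, Aqp4, was lower, at -0.58 ± 0.12, as were 2 of 10 microglia markers, C1qb at -0.30 and C1qa at -0.35. Without the 4 libraries with cortical RNA, Aqp4 was -0.70 (adjusted p = 0.00561), C1qb -0.19 (adjusted p = 0.32) and C1qa -0.24 (adjusted p = 0.349). At 12 weeks, among 10 striatal projection neuron markers, Tac1 was higher, by 0.43 ± 0.094, and Rgs9 and Pde10a lower, at -0.49 and -0.43. With all libraries, the oligodendrocyte, endothelial, thalamic, dopamine neuron and cortical lists had 0 calls at either age, although the 9 cortical markers tested had a median of 2.10 at 4 weeks. Without the 4 libraries, where 2.65% of all genes were called, 1 of 10 endothelial markers was lower and 1 of 10 striatal projection neuron markers higher at 4 weeks. With the cortical score as a covariate, where 3.36% were called, 1 of 10 thalamic markers was higher at 4 weeks. The part of these differences in the member results was not tested beyond the settings given above.

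Outside striatum the pathway lists gave 2 calls in KO, both in somatosensory cortex. There 0.0564% of all genes were called at 4 weeks and 0.0252% at 12 weeks. The CREB target Arc, an activity-induced synaptic gene, was lower at 4 weeks, 482 ± 206 CPM in WT and 121 ± 55.5 CPM in KO, a difference of -1.99 ± 0.30 (adjusted p = 0.0223). The highest KO library, at 211 CPM, was just below the lowest WT library, at 213 CPM. In these 4-week libraries Sik1 was at -0.90 and was not called. Arc at 12 weeks went the other way, 217 ± 95.9 CPM in WT and 297 ± 100 CPM in KO, and was not called. At 12 weeks the PKA regulatory subunit gene Prkar1a was lower, at -0.25 ± 0.041 (adjusted p = 0.0398).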

How the data were processed

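RNA was made into stranded mRNA libraries, per the labels' protocols. The values deposited by the authors are expected counts, estimated per gene and not always whole, and the submitters' processing notes name Salmon and mm10. The sources used here give no version, annotation or strand setting. In 16 libraries, all at 4 weeks, at most 5.55% of values above 0 were whole, against at least 17.3% in the others.

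Counts were rounded and the genotypes of each region and age fitted in 1 model by edgeR 4.0.16 under R 4.3.3 (TMM scaling, filterByExpr, glmQLFit, glmQLFTest). The p-values were adjusted by Benjamini-Hochberg over all genes tested, and called under 0.05. SE is the size of the log2 fold change over the square root of F. Differences between regions or ages were tested in 1 fit over the groups concerned. Levels are CPM on TMM sizes over all libraries. Alternatives used DESeq2 1.42.0 and limma 3.58.1. The fits were tested on simulated data. Counts of replicates differed beyond sampling noise in all 390 pairs (chi-square over degrees of freedom at least 7.97), and each library counted as 1 sample.

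The members and lists were chosen with earlier results of these data known. All members were named, with up to 4 called genes per list and comparison and the 3 genes most like each member, of which 1 is not reported here. Likeness used log2(CPM + 1) over genes with a mean of at least 5 CPM. Gene positions are from GENCODE M21 on GRCm38. Depth per library limits the precision of the weakest members.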

Additional observations from a re-analysis of the deposited data

Results flagged for a closer look

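The KO effect on Crem in 4-week striatum differed from that in the other 5 regions by 0.51 on the log2 scale, by a test of the difference itself. In 25 of 324 groups of a member, region, age and genotype, or 7.72%, the highest or lowest library stood far from the rest by Dixon's criterion, where chance alone gives about 1 in 20. Of the libraries numbered 2 at 12 weeks, HET 2 was high for Crem in somatosensory cortex (22.5 CPM against 10.4 to 12.4), for Sik3 in hippocampus (193 CPM) and somatosensory cortex (184 CPM against 158 to 162) and for Sik2 in thalamus (37.9 CPM against 23.5 to 27.1). WT 2 was high in hippocampus for Sik3 (216 CPM) and Crtc3 (31.4 CPM). KO 2 was high for Sik3 in somatosensory cortex (167 CPM) and striatum (371 CPM against 309 to 320).

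Other high libraries at 12 weeks were KO 3 for Creb1 in hippocampus (53.1 CPM) and KO 1 for Atf1 in prefrontal cortex (12.0 CPM). At 4 weeks WT 92 in substantia nigra was low for Sik2 (6.48 CPM against 32.9 to 36.4) and Creb1 (16.1 CPM). WT 142 was low for Creb1 in prefrontal cortex (33.9 CPM) and Crtc3 in somatosensory cortex (11.1 CPM). HET 93 was high for Atf1 (10.2 CPM) and low for Crtc2 (20.9 CPM) in somatosensory cortex, and low for Sik2 in prefrontal cortex (33.8 CPM). WT 913 was high for Crtc1 in thalamus (197 CPM) and Crtc3 in striatum (21.6 CPM). In striatum Sik2 was high in HET 162 (71.0 CPM) and WT 914 (83.5 CPM). Sik1 was high in WT 914 in hippocampus (21.4 CPM), KO 163 in substantia nigra (23.1 CPM) and HET 162 in thalamus (14.5 CPM). Sik3 was high in WT 23 in hippocampus (204 CPM).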

How the results depend on the processing

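Normalization, filter, fitted genotypes, library subset, left-out libraries and block were changed 1 at a time. DESeq2 also changed the genes tested (21807 against 15425 in 4-week striatum), and the block across regions also changed the test, to limma-voom. The Crem difference in 4-week striatum was called in all 17 alternatives, with adjusted p-values of 4.33e-05 to 0.0331. The cause of each moved call was not tested. In 12-week striatum, KO against WT had 1 member called, Crem, with DESeq2, with the replicate block and without the libraries numbered 2 (added after seeing the data), and 0 to 1 when 1 library was left out. KO against HET there had 1 with DESeq2, 2 with the replicate block, 1 without the libraries numbered 2, and 0 to 1 by leaving out libraries; at 4 weeks it had 1 with DESeq2. The difference of striatum from the other regions had 1 member called at 12 weeks with the block in limma-voom, and 2 at 4 weeks without the libraries that stand apart. In 4-week somatosensory cortex 1 was called with DESeq2 and 0 to 1 by leaving out libraries. Age calls in WT ranged from 1 to 3 in substantia nigra, 0 to 1 in somatosensory cortex (0 without the filter) and 0 to 1 in thalamus. Sik1 in 4-week thalamus was 0.50 without the libraries that stand apart and -0.19 to 0.15 by leaving out libraries. By leaving out libraries, Crem ran from -0.066 to 0.10 in 12-week prefrontal cortex, -0.11 to 0.028 in substantia nigra, -0.090 to 0.17 in somatosensory cortex, -0.013 to 0.11 in thalamus, -0.077 to 0.019 in 4-week somatosensory cortex, and -0.11 to 0.11 for HET in 12-week striatum. Without the libraries numbered 2 it was -0.030 in prefrontal cortex, 0.033 in substantia nigra and -0.018 for HET in striatum. In 12-week striatum Creb1 ran from -0.067 to 0.016, Crtc1 from -0.018 to 0.033, Crtc3 from -0.0078 to 0.066 and Sik3 from -0.065 to 0.14, and at 4 weeks Crtc2 from -0.13 to 0.0064. The replicate numbers at 12 weeks are not stated to mark a shared animal or batch. Same-numbered deviations correlated above 0.1 in 62 of 90 pairs (-0.24 to 0.78), and in 1 of 18 pairs of genotypes all 5 did, short of the rule that every pair must, so no pairing was assumed. That 41 of 90 correlated best with their own number is a hint from the data of something shared by number. The block changed no member call beyond those given. Depth limits the weakest members, with at least 129 counts for Crem in any library.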

Other observations

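At 12 weeks the library numbered 2 was the highest of its group for Crem in 15 of 18 groups of region and genotype and the lowest in 0. It was the highest for Sik3 in 14 of 18, for Creb1 and Crtc3 in 9 of 18 each, and for Sik1 in 3 of 18. For Crtc1 it was the lowest in 9 of 18. The library numbered 4 was the lowest for Crtc2 in 14 of 18. The labels do not say what a number stands for, and these counts were made after the values were seen.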
